A study of Mus musculus with 12 samples.

Results

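The 10 carboxylesterase genes *Ces1b*, *Ces1c*, *Ces1d*, *Ces1e*, *Ces1f*, *Ces1g*, *Ces2a*, *Ces2e*, *Ces3a* and *Ces3b* were followed through the livers of mice with and without *Yap1*. They were the rows of the deposited expression table that carried these names, 10 of its 25676 genes, and the table held 9 further genes named *Ces*. RNA was sequenced from whole liver of 12 mice, 1 library per mouse, in 4 groups of 3: wild-type (WT) males, WT females, and males and females in which *Yap1* had been deleted by a *Foxa3*-Cre transgene (KO). All mice had a C57BL/6 background and were 3 to 4 months old. The *Foxa3* promoter is active in the foregut endoderm, from which hepatocytes and bile duct cells arise, so resident macrophages, stellate cells and endothelial cells are not expected to recombine. Whether the WT mice carried the Cre transgene or a floxed allele is not given in the sources used here.

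Carboxylesterases are serine hydrolases that split esters, thioesters and amides, and most of them are held in the lumen of the endoplasmic reticulum. The liver makes them in large amounts. They activate or clear ester drugs there and hydrolyse stored triglyceride, supplying fatty acids that are re-esterified during the assembly of very low density lipoprotein. Rodents carry many tandem copies of genes for which humans have a single *CES1*, *CES2* or *CES3*.

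Values are TPM, transcript abundances that are scaled for transcript length and sum to 1000000 in each library, so levels of different genes can be compared as shares of a library's transcripts. Between 14321 and 15482 genes were above 0 TPM in a library, and the read depth of the libraries is unknown. *Yap1* averaged 29.5 ± 4.46 TPM in WT livers and 2.02 ± 0.775 TPM in KO livers (SD, n = 6 each), a difference of -3.36 on the log2(TPM + 1) scale (exact permutation test within sex, two-sided p = 0.005, the smallest that the 400 arrangements allow). The remaining *Yap1* was 0.994 to 1.80 TPM in KO males and 2.41 to 3.11 TPM in KO females, without overlap (male minus female -0.62, limma unadjusted p = 0.00384, adjusted p = 0.692), and the WT mean was 23.0-fold the KO mean in males and 10.2-fold in females (interaction -0.86, limma adjusted p = 0.221; rescaled -1.05, adjusted p = 0.0673). The part of this in the sex comparisons below was not tested. The libraries differed in composition between the genotypes: the 22 *Mup* genes, which encode the major urinary proteins, took 3.14 to 15.8% of all transcripts in WT and 0.160 to 0.836% in KO. Because such shifts move every other share, the genotype difference of each member over both sexes was also computed after dividing the libraries by median-of-ratios size factors, which moved the median KO minus WT difference of all tested genes from 0.35 to -0.04. This second value, called rescaled below, is also given for other differences where it bears on them. Median-of-ratios scaling takes the typical gene as unchanged, which was not tested. It is not specific to the *Mup* genes: the *Yap1* difference was -3.49 without them and -3.74 rescaled.

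Of the 10 carboxylesterases, 7 were lower in KO than in WT over both sexes, 1 was higher and 2 did not pass the test (limma on log2(TPM + 1) with sex as a covariate, Benjamini-Hochberg adjusted p under 0.05). Of all 12278 tested genes, 4.82% were lower and 50.1% were higher. After rescaling, 9 members were lower and 1 was higher, against 18.8% and 20.6% of all genes. The median difference of the 10 members was -0.89, and that of all tested genes was 0.35. *Ces3b* had the largest fall and *Ces1g* was the member that rose. The plot of levels by liver shows every value.

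**Figure D1:**
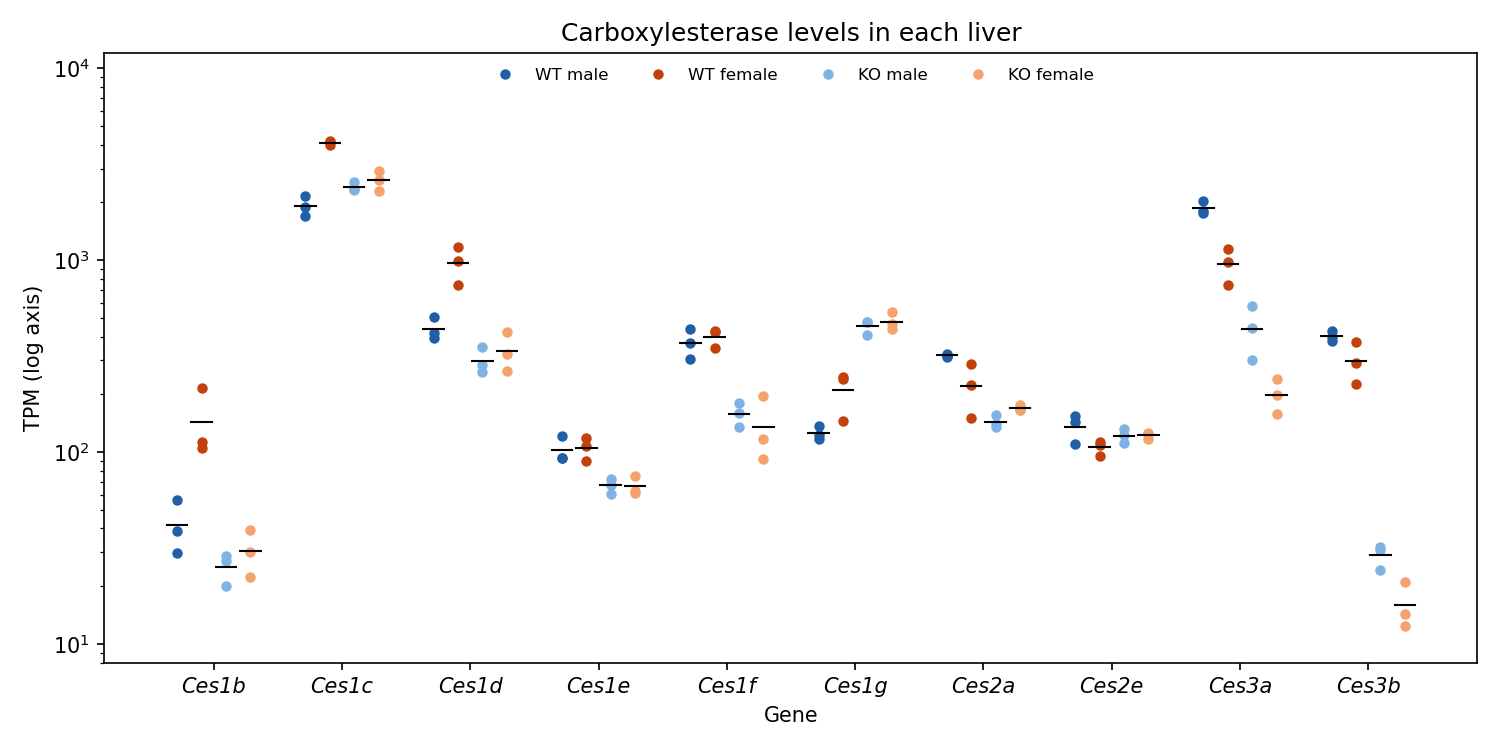
Level of each carboxylesterase (x axis) in TPM on a log axis (y axis); each point is 1 liver, coloured by group, and each line is the mean of 3 livers. All 6 KO values of *Ces3b* lie far below all 6 WT values, those of *Ces1g* lie above, and the WT females stand over the WT males for *Ces1b*, *Ces1c* and *Ces1d*.

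The genes lie in 2 tandem arrays on chromosome 8 (GRCm38, GENCODE annotation). The *Ces1* array spans 93020214 to 93535830, holds 9 *Ces* genes on the minus strand and includes all 6 *Ces1* members. The array of *Ces2* and *Ces3* genes spans 104734003 to 105150109 on the plus strand and holds 10 *Ces* genes, among them the other 4 members. Near-identical copies can share reads. *Ces3a* and *Ces3b* transcripts were 95.4% identical over their aligned bases, and *Ces1b* and *Ces1c* 91.4%. Of all 50-base windows, 30.9% in *Ces3a* and 26.1% in *Ces3b* occurred in another gene, as did 22.2% in *Ces2a*, 17.0% in *Ces1c* and 11.6% in *Ces1b*. In the other 5 members it was 1.28 to 3.36%. How the authors' counting treated such reads is not given in the sources used here, so the levels of *Ces3a*, *Ces3b*, *Ces2a*, *Ces1c* and *Ces1b* are less certain than those of the other 5 members. Of 100-base windows, 10.7% in *Ces2a* were shared, all with the annotated gene *Gm7208*, against 9.09% in *Ces3a*, 7.68% in *Ces3b*, 1.39% in *Ces1c* and 1.29% in *Ces1b*.

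*Ces3a* and *Ces3b* are neighbouring genes with their main expression in liver, and both fell strongly. *Ces3b* (ENSMUSG00000062181, chromosome 8, 105083753 to 105093929) was at 399, 381 and 429 TPM in the 3 WT males and at 227, 291 and 374 TPM in the 3 WT females. In KO it was at 24.4, 30.9 and 32.1 TPM in males and at 14.4, 12.4 and 21.1 TPM in females. Every KO liver was far below every WT liver, and the group means, 350.0 ± 75.9 TPM and 22.6 ± 8.21 TPM (SD, n = 6 each), differed 15.5-fold. On the log2 scale *Ces3b* fell by 3.94 (SE 0.154, limma adjusted p = 5.58e-10), or by 4.40 rescaled. The fall was 3.75 in males and 4.14 in females, a difference between the sexes that did not pass the test (interaction 0.39, SE 0.297, adjusted p = 0.714 with limma; rescaled 0.15).

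*Ces3a* (ENSMUSG00000069922, chromosome 8, 105048601 to 105058413) started from a higher level. Its values were 1757, 1792 and 2038 TPM in WT males and 743, 974 and 1145 TPM in WT females. KO males had 302, 577 and 442 TPM and KO females 159, 241 and 199 TPM. All KO values again lay below all WT values, and males lay above females in both genotypes. Its difference of -2.19 (SE 0.165, limma adjusted p = 2.31e-07; rescaled -2.65) was smaller than that of *Ces3b*, and the mean was 4.40-fold lower in KO. The 2 *Ces3* members together made up 2265 ± 175 TPM in WT males and 215 ± 40.2 TPM in KO females (SD, n = 3), with WT females at 1251 ± 275 TPM and KO males at 469 ± 141 TPM between them.

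*Ces1g* encodes an esterase of the endoplasmic reticulum that has been studied for its part in hepatic triglyceride and lipoprotein handling. *Ces1g* (ENSMUSG00000057074, chromosome 8, 93302369 to 93337308) was at 123, 117 and 136 TPM in WT males and at 246, 239.5 and 145 TPM in WT females. KO males had 474, 406 and 477 TPM, and KO females had 437, 534 and 465 TPM. All 6 KO livers were above all 6 WT livers, and the mean rose 2.78-fold, by 1.53 on the log2 scale (SE 0.156, limma adjusted p = 3.59e-06; rescaled 1.07, adjusted p = 8.72e-05). The rise was 1.84 in males and 1.22 in females, and the difference between the sexes did not pass the test (interaction 0.63, SE 0.266, limma adjusted p = 0.518; rescaled 0.40). Among the 10 members, *Ces1g* and *Ces3b* had the most opposite profiles over the 12 samples (Pearson's r of log2(TPM + 1) -0.949, a description of samples that share the genotype split).

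The sequences before the annotated starts of these oppositely moving genes are printed because they are the promoter stretches of the largest fall and of the rise. They come from RefSeq (GRCm38.p6), limited to bases that precede the start in both RefSeq and GENCODE, 5′ to 3′ on the gene's own strand. *Ces3b* is chr8:105083505-105083752 on the plus strand and *Ces1g* is chr8:93337309-93337459 on the minus strand.
Ces3b: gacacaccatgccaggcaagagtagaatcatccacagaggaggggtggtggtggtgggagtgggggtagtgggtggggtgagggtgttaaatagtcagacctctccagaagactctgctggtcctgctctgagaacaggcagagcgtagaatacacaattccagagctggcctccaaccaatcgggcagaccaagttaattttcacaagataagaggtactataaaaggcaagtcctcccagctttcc
Ces1g: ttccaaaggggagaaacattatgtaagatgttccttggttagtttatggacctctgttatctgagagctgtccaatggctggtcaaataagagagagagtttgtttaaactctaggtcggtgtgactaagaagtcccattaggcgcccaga
Neither holds any of 4 short motifs that were searched on both strands, so no letter is in capitals. The motifs were AGGTCA (the core of nuclear receptor sites), TTCNNNGAA (STAT), GGAATG (TEAD) and TGACNNNGC (antioxidant response element). In all 32851 RefSeq promoter windows of 300 bases, 16.3%, 8.30%, 14.7% and 12.4% held them, in that order. The tables gave 8 windows for 7 of the 10 members, and 1 of these, that of *Ces2a*, held AGGTCA and none held the other motifs. A match or its absence describes the letters in this window only.

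*Ces1c* encodes the carboxylesterase that mouse liver secretes into plasma, and it had the highest mean of the 10 genes in all 4 groups. *Ces1c* (ENSMUSG00000057400, chromosome 8, 93099015 to 93131283) was at 1899.7, 1705 and 2169 TPM in WT males and at 4164, 3981 and 4102 TPM in WT females. KO males had 2342, 2557 and 2333 TPM and KO females 2290.0, 2601 and 2917 TPM. The WT females stood apart from the other 3 groups: all 3 exceeded every other liver, while the KO males and KO females overlapped. Over both sexes the KO minus WT difference was -0.16 (SE 0.170, limma adjusted p = 0.433), but rescaled it was -0.63 (adjusted p = 0.00695). In females *Ces1c* fell by 0.66 (SE 0.145, limma adjusted p = 0.00396). In males the difference was 0.33 (SE 0.145, limma adjusted p = 0.0783) although the 3 KO values all lay above the 3 WT values, and rescaled it changed sign, to -0.25.

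*Ces1b*, the gene next to *Ces1c*, was much less abundant. It was at 29.6, 38.8 and 56.4 TPM in WT males and at 113, 105 and 215 TPM in WT females, against 28.8, 27.0 and 20.04 TPM in KO males and 22.4, 30.3 and 39.3 TPM in KO females. WT females were again the high group, and the other 3 groups overlapped in part. *Ces1b* fell by 1.41 over both sexes (SE 0.290, limma adjusted p = 0.00118; rescaled -1.86) and by 2.15 in females (SE 0.301, adjusted p = 0.000175 with limma). In males its difference was -0.67 (SE 0.301, limma adjusted p = 0.0863). That male value passed the test rescaled (-1.23, adjusted p = 0.0180), without WT male replicate 1 (-0.88, adjusted p = 0.0475) and without WT female replicate 3 (-0.67, adjusted p = 0.0487).

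The upstream sequences of *Ces1b* and *Ces1c* are shown because these neighbouring genes share both transcript sequence and the high level in WT females. That level is not particular to them: *Ces1d* was also highest in WT females, but no promoter window was available for it. Capitals mark runs of at least 20 bases that the stretches share, 82 bases in each, the longest of 58 bases. *Ces1b* is chr8:93080018-93080267 and *Ces1c* is chr8:93131284-93131533, both on the minus strand of GRCm38.p6 and 250 bases long.
Ces1b: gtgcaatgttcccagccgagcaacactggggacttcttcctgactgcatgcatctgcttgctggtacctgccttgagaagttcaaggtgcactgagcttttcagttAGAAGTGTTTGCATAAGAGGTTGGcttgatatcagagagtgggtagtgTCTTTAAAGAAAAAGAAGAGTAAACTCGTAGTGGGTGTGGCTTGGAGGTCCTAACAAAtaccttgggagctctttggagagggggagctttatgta
Ces1c: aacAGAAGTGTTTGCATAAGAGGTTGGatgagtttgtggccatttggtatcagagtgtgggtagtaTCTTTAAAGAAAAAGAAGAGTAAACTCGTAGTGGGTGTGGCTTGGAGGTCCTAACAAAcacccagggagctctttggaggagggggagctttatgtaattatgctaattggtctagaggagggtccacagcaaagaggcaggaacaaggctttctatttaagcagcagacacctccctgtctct
The shared runs describe the letters of these stretches, and no measurement here bears on what binds them.

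*Ces1d* and *Ces1f* encode triacylglycerol hydrolases of the endoplasmic reticulum. *Ces1d* (chromosome 8, 93166068 to 93197838) was at 418, 395 and 507 TPM in WT males, 991, 1169.9 and 738 TPM in WT females, 283, 262 and 354 TPM in KO males and 323, 425 and 264 TPM in KO females. WT females were highest and did not overlap any other group, and in each sex all KO values lay below all WT values. *Ces1d* fell by 1.04 over both sexes (SE 0.197, limma adjusted p = 0.000638; rescaled -1.501, adjusted p = 2.09e-05), by 1.52 in females (adjusted p = 0.000171) and by 0.56 in males (SE 0.211, adjusted p = 0.0466). The male call was narrow. It was lost when any of WT male replicates 1, 2 or 3, WT female replicate 1, KO male replicates 1 or 2 or KO female replicate 1 was left out (-0.63 to -0.45, limma adjusted p between 0.0555 and 0.138), with no filter on low genes (adjusted p = 0.0721) and without the trend (0.0525), but not rescaled (-1.13, adjusted p = 0.00169).

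*Ces1f* (chromosome 8, 93256236 to 93279747) was similar in the WT sexes, at 371, 307 and 438 TPM in males and 348, 424 and 426 TPM in females. KO males had 135, 181 and 159 TPM and KO females 118, 196 and 92.2 TPM. All 6 KO livers were below all 6 WT livers, and the sexes overlapped within each genotype. *Ces1f* fell by 1.42 (SE 0.174, limma adjusted p = 1.74e-05; rescaled -1.89), to a mean that was 2.63-fold lower.

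*Ces1e* encodes egasyn, the esterase that holds beta-glucuronidase in the endoplasmic reticulum. WT livers ranged from 90.3 to 121 TPM around a mean of 104 ± 13.8 TPM, and KO livers from 60.5 to 74.8 TPM around 66.6 ± 6.16 TPM (SD, n = 6 each). The groups did not overlap, and the fall of 0.63 (SE 0.108, limma adjusted p = 0.000285; rescaled -1.09) was the smallest of those that passed the test as deposited. It was close to equal in males (-0.60) and females (-0.66). WT female replicate 3 and KO female replicate 1 carry animal numbers from a lower range than the other mice. Without these 2 livers the female difference was -0.61 (limma adjusted p = 0.0560).

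*Ces2a*, a hydrolase of triacylglycerol and diacylglycerol in liver, and *Ces2e* were the *Ces2* members. *Ces2a* (chromosome 8, 104734003 to 104741634) was at 325, 318 and 312 TPM in WT males and at 151, 223 and 289 TPM in WT females, and KO males had 134, 139 and 156 TPM and KO females 166, 176 and 166 TPM. WT males were the high group here, the WT females were widely spread and the KO females lay within their range. *Ces2a* fell by 0.74 over both sexes (SE 0.171, limma adjusted p = 0.00252; rescaled -1.21) and by 1.15 in males (SE 0.188, adjusted p = 0.000429). In females the difference was -0.34 (SE 0.188, limma adjusted p = 0.192). It passed the test rescaled (-0.69, adjusted p = 0.0234) and without WT female replicate 1 (-0.58, adjusted p = 0.0139).

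*Ces2e* (chromosome 8, 104926260 to 104934672) differed least between the genotypes on the deposited scale. WT livers ranged from 95.8 to 154 TPM (mean 121 ± 22.4 TPM) and KO livers from 111 to 132 TPM (mean 122 ± 7.17 TPM; SD, n = 6 each). The KO range lay inside the WT range, and the difference of 0.03 (SE 0.110, limma adjusted p = 0.813) became -0.43 rescaled (adjusted p = 0.0237). It was also just below 0 as deposited without WT male replicate 3 (-0.0099) or WT female replicate 1 (-0.018), so its direction is not settled. In males the difference was -0.14 (limma adjusted p = 0.423), and it passed the test rescaled (-0.72, adjusted p = 0.00633).

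Counting livers rather than testing means, 4 members had all 6 KO values below all 6 WT values (*Ces1e*, *Ces1f*, *Ces3a* and *Ces3b*) and 1 had all above (*Ces1g*). Of all tested genes, 1.88% did so downwards and 28.7% upwards. Rescaled, *Ces1b*, *Ces1d* and *Ces2a* joined the first group, giving 7 members against 8.24% of all genes, and *Ces1g* stayed above where 10.6% of all genes did. In bulk liver, fewer cells of a type and less RNA per cell cannot be told apart.

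Levels of some cell markers differed by genotype, and their counts stand beside 50.1% of all genes higher and 4.82% lower (rescaled 20.6% and 18.8%). The summed level of 8 hepatocyte markers (*Alb*, *Ttr*, *Apoa1*, *Apoa2*, *Serpina1c*, *Fgb*, *Tat* and *Ahsg*) was 108366 to 147264 TPM in WT and 87754 to 113162 TPM in KO, with 3 of them lower and 2 higher in KO (limma; rescaled 4 and 0), so the labelled tissue had its defining genes in every library. All 6 macrophage markers were higher, with sums of 47.2 to 156 TPM in WT and 214 to 426 TPM in KO. Of 8 bile duct markers 6 were tested, 4 were higher and 1 was lower (rescaled 3 and 1), with sums of 37.8 to 68.4 and 273 to 742 TPM. The members of that list did not move together: *Spp1*, *Cldn7* and *Sox9* rose by 3.76, 3.28 and 1.57 (limma; rescaled 3.31, 3.03 and 1.17), while the keratin gene *Krt19* differed by -0.12 (adjusted p = 0.707) and *Epcam* by -0.35 (adjusted p = 0.0312; rescaled -0.53). Of 6 stellate cell markers 4 were higher (rescaled 3 higher and 1 lower), with sums of 21.6 to 45.5 and 83.1 to 193 TPM. The largest differences among them were those of *Col1a1*, *Col3a1* and *Pdgfrb* (4.01, 2.86 and 1.84), and *Lrat* differed by -0.54 (adjusted p = 0.0671; rescaled -0.91, adjusted p = 0.00336). Neutrophil markers summed to 0 to 18.4 TPM in WT and 9.03 to 41.7 TPM in KO, with 2 of the 3 tested higher (rescaled 0). Endothelial markers (1 of 5 lower, rescaled 2) summed to 36.8 to 57.9 and 21.1 to 85.0 TPM. None of the tested lymphocyte or fat cell markers passed the test, with sums up to 6.51 TPM and up to 30.0 TPM. The 2 tested gut and pancreas markers were lower, with sums of 60.9 to 118 and 28.6 to 47.1 TPM, and *Prss1* was listed at 0 in all libraries. The part of these shifts in the carboxylesterase differences was not tested.

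In males alone, 6 members were lower in KO (2.81% of all genes were) and *Ces1g* was higher (43.3%), and in females 7 were lower (4.68%) and *Ces1g* was higher (29.1%). Rescaled, 8 members were lower and *Ces1g* was higher in each sex, against 10.3% and 13.7% of all genes in males and 10.9% and 15.1% in females. As deposited, both sets of lower genes held *Ces1d*, *Ces1e*, *Ces1f*, *Ces3a* and *Ces3b*. *Ces2a* was called in males, and *Ces1b* and *Ces1c* were called in females. A call in 1 sex does not show that the sexes differ, which was tested as an interaction, the male KO minus WT difference less the female one. The plot of genotype differences by sex shows both.

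**Figure D2:**
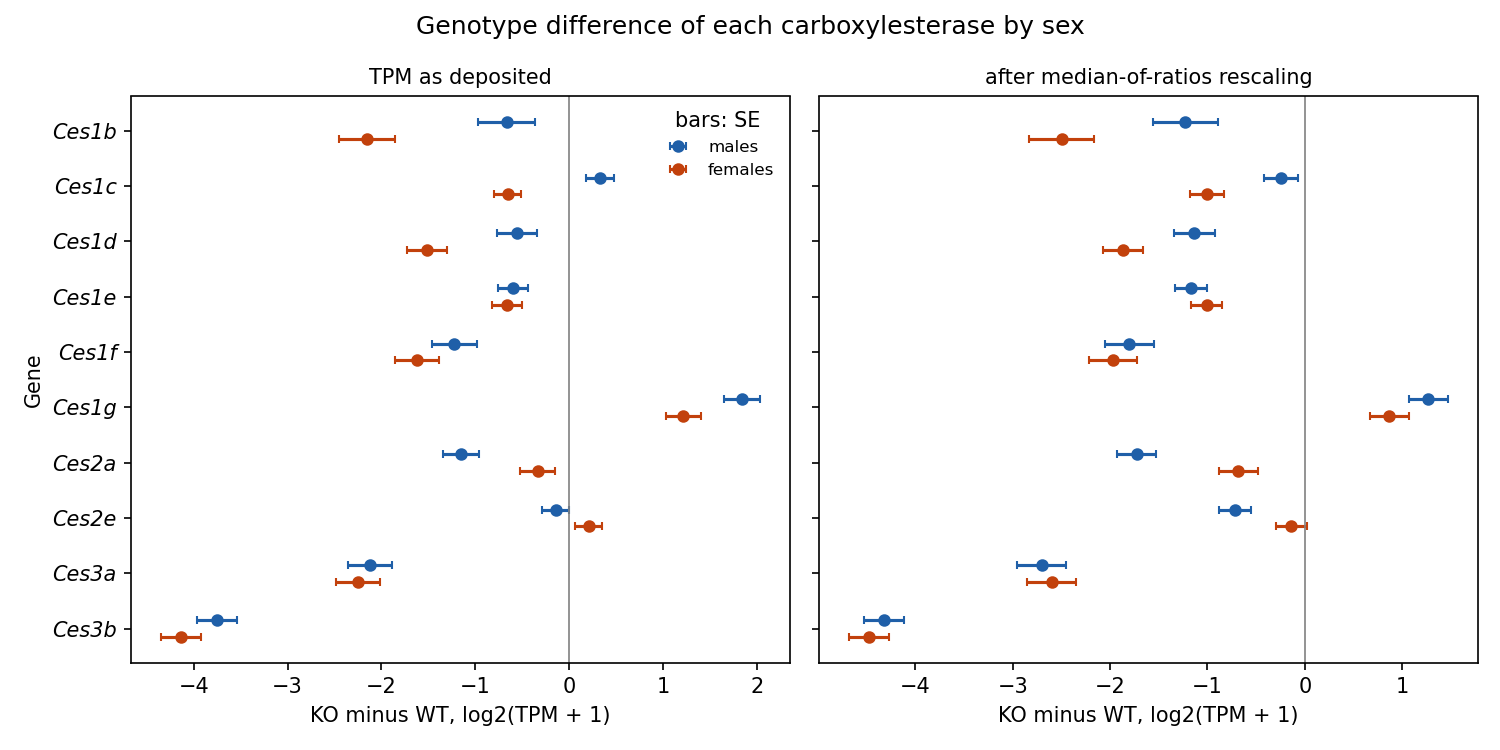
KO minus WT difference of each carboxylesterase on the log2(TPM + 1) scale (x axis) in males and females, from TPM as deposited (left) and rescaled (right); points are limma estimates and bars are SE. *Ces1c* lies on opposite sides of 0 in the sexes on the left (0.33 and -0.66) and on the same side on the right (-0.25 and -1.01).

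For 1 member, *Ces1c*, the interaction passed the test (0.99, SE 0.205, limma adjusted p = 0.0434), where 0.912% of all genes passed in either direction. It was lost rescaled (0.76, adjusted p = 0.397), without the *Mup* genes (0.85, adjusted p = 0.145), and on leaving out any single library other than WT male replicate 3 (0.90 to 1.07, adjusted p between 0.0584 and 0.127). Unadjusted p-values were under 0.05 for 5 members, as for 8.85% of all genes. Besides *Ces1c* they were *Ces1b* (1.49, limma adjusted p = 0.221), *Ces1d* (0.96, adjusted p = 0.292) and *Ces1g* (0.63, adjusted p = 0.518), with a positive sign, and *Ces2a* (-0.82, adjusted p = 0.327).

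The sex differences within each genotype hold the same numbers from the other side. In WT, 4 members were higher in females (*Ces1b* by 1.74, *Ces1d* by 1.12, *Ces1c* by 1.09 and *Ces1g* by 0.71 on the log2 scale; limma adjusted p = 0.00498, 0.00859, 0.000563 and 0.0466), where 4.60% of all genes were. *Ces3a* was higher in males, by 0.98 (SE 0.237, limma adjusted p = 0.0307), where 1.14% of all genes were. The female-high genes thus all came from the *Ces1* array and the male-high gene from the other. *Ces1b*, *Ces1c*, *Ces1d* and *Ces3a* also passed rescaled (-1.52, -0.86, -0.89 and 1.21), *Ces2a* then passed as male-high (0.80, adjusted p = 0.0425), and *Ces1g* did not (-0.48, adjusted p = 0.170). Of all genes 2.27% were female-high and 2.13% male-high on that scale.

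Several of these sex calls were lost or gained with single livers or other settings. *Ces1g* was lost without any of WT male replicates 1 or 2, WT female replicates 1 or 2, KO male replicates 1, 2 or 3, or KO female replicates 1 or 3 (-0.71 to -0.57, limma adjusted p between 0.0518 and 0.177), and with no filter on low genes (0.0745), without the *Mup* genes (-0.57, adjusted p = 0.116) and without the trend (0.0553). *Ces3a* was lost without WT male replicates 1 or 2 or WT female replicates 1 or 2 (0.81 to 1.02, adjusted p between 0.0690 and 0.134), with no filter (adjusted p = 0.0613) and with a term for the lower animal numbers (0.98, adjusted p = 0.0695). *Ces2a* passed as male-high without WT female replicate 3 (0.79, adjusted p = 0.0253), and *Ces2e* did so without WT male replicate 3 (0.48, adjusted p = 0.0405). The calls of *Ces1b*, *Ces1c* and *Ces1d* held on leaving out each library in turn.

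In KO, 0 members differed between the sexes (limma), where 0.0814% of all genes did, and 2 had an unadjusted p under 0.05, as did 5.33% of all genes. These were *Ces3a*, 1.11 higher in males (SE 0.237, adjusted p = 0.283), and *Ces3b*, 0.85 higher (SE 0.210, adjusted p = 0.600). For both, the 3 KO males lay above the 3 KO females. The male minus female differences of *Ces1b*, *Ces1c* and *Ces1d* in KO were -0.25 (SE 0.301), -0.10 (SE 0.145) and -0.16 (SE 0.211). Of these 3 genes, the change of the sex difference passed the test only for *Ces1c*, as given above.

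**Figure D3:**
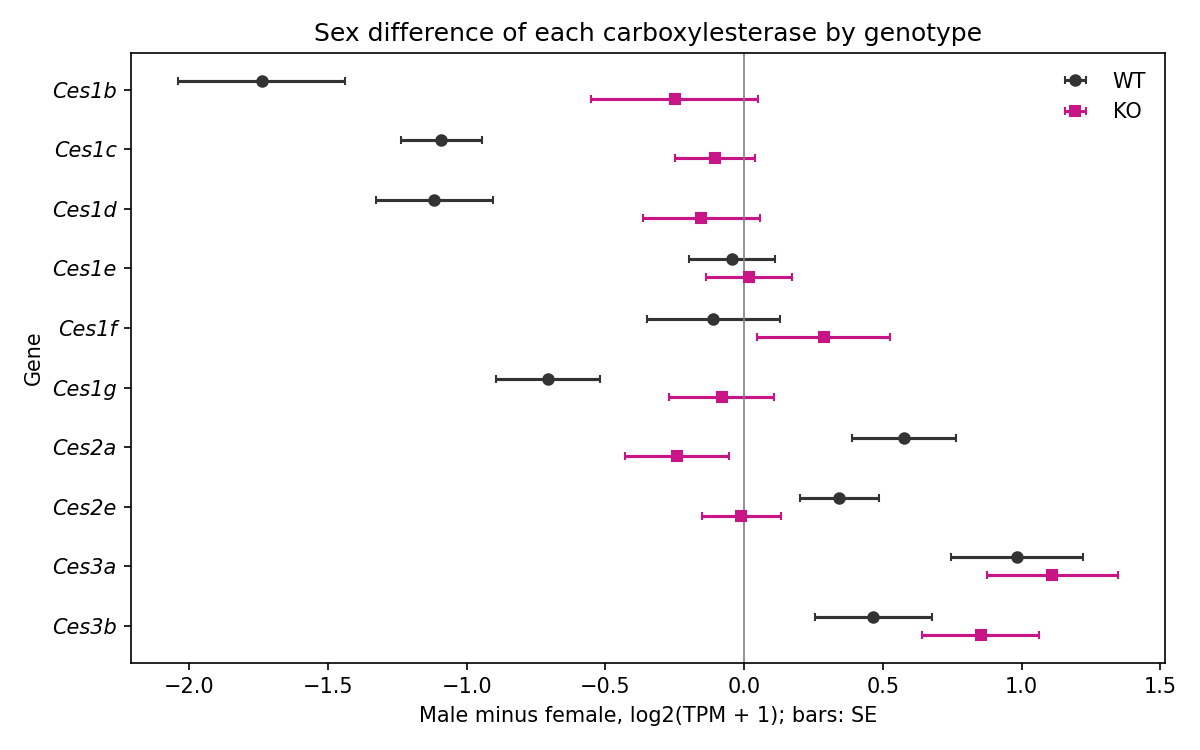
Male minus female difference of each carboxylesterase on the log2(TPM + 1) scale (x axis) in WT (circles) and KO (squares); bars are SE of the limma estimate. In WT *Ces1b*, *Ces1c*, *Ces1d* and *Ces1g* lie left of 0 and *Ces3a* right, and in KO *Ces3a* and *Ces3b* lie farthest from 0.

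The summed level of the 10 genes was 5725 ± 531 TPM in WT males, 7486 ± 274 TPM in WT females, 4147 ± 230 TPM in KO males and 4158 ± 384 TPM in KO females (SD, n = 3). All KO sums, from 3716 to 4407 TPM, lay below all WT sums, from 5290.0 to 7651 TPM. Its make-up moved as well. *Ces1c* made up 33.6% of the sum in WT males and 54.6% in WT females, and 58.2% and 62.6% in KO males and females. In females the *Ces1c* share was larger in KO although its mean level was lower, at 2603 against 4083 TPM. *Ces3a* fell from 32.6% to 10.5% in males and from 12.7% to 4.77% in females, and *Ces1g* went from 2.19% to 11.0% and from 2.82% to 11.5%. These shares are descriptions and carry no test.

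**Figure D4:**
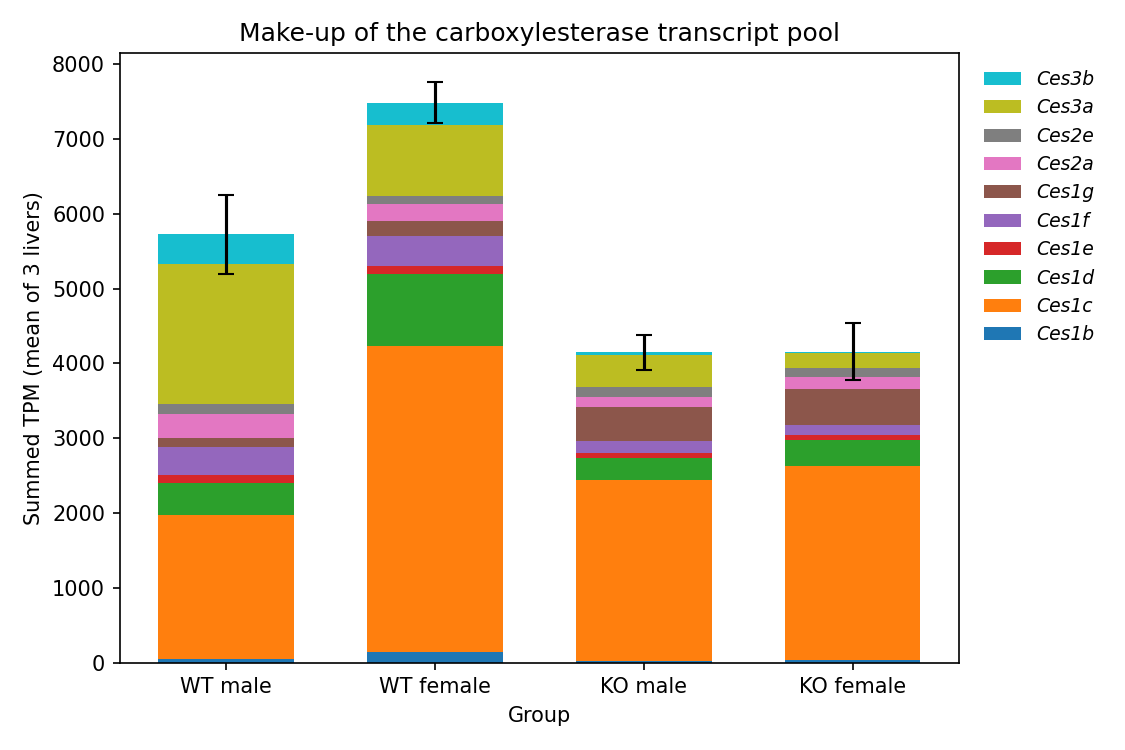
Summed TPM of the 10 carboxylesterases (y axis) in each group, stacked by gene as the mean of 3 livers; bars are SD of the sum. The 2 KO groups stand at 4147 and 4158 TPM, with smaller *Ces3* parts and a larger *Ces1g* part than both WT groups. Against WT females, the KO females also have smaller parts of *Ces1c* (2603 against 4083 TPM) and *Ces1d* (337 against 966 TPM).

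The order of the levels changed with them. In WT males *Ces1c* and *Ces3a* led with overlapping ranges, well above *Ces1d*, *Ces3b*, *Ces1f* and *Ces2a*, each of which overlapped the next of these. In WT females *Ces1c* stood alone, followed by *Ces1d* and *Ces3a*, whose ranges overlapped. In both KO groups *Ces1g* was second to *Ces1c*, overlapping *Ces3a* in males and standing apart from *Ces1d* in females. *Ces3b*, the fourth gene in WT males, was ninth in KO males, where it overlapped *Ces1b*, and last in KO females without overlap.

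Among the 9 other *Ces* genes, 4 passed the filter on low values. *Ces2c*, which encodes a triacylglycerol hydrolase related to human CES2, was at 104, 117 and 80.0 TPM in WT males, 39.2, 39.4 and 36.8 TPM in WT females, 58.8, 57.3 and 56.1 TPM in KO males and 54.2, 68.3 and 56.5 TPM in KO females. It fell by 0.78 in males (limma adjusted p = 0.00138; rescaled -1.35, adjusted p = 0.000305) and rose by 0.61 in females (adjusted p = 0.00733; rescaled 0.27, adjusted p = 0.341), and its interaction of -1.39 (SE 0.213, limma adjusted p = 0.00445; rescaled -1.62) had the opposite sign to that of *Ces1c*. *Ces2g* rose by 0.31 (limma adjusted p = 0.0342), but rescaled the difference was -0.14. The call of *Ces2g* was also lost without WT male replicates 2 or 3, any KO male replicate or KO female replicate 2 (adjusted p between 0.0519 and 0.0803). *Ces4a* and *Ces2b* were low, at most 3.45 and 5.59 TPM in WT and 0.141 and 0.102 TPM in KO, and passed the filter only through their WT values. *Ces5a* was listed at 0 in all libraries, and *Ces1a*, *Ces1h*, *Ces2f* and *Ces2h* reached at most 0.524 TPM.

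Of the 20 nearest genes of the table, 5 on each side of each array, 13 were tested, 6 were higher in KO and 1 was lower (limma; rescaled 3 and 2), where 50.1% of all genes were higher and 4.82% lower (rescaled 20.6% and 18.8%). *Mmp2*, a matrix metalloproteinase, and *Lpcat2*, a lysophospholipid acyltransferase, which lie before the *Ces1* array, rose by 2.26 and 1.85 (adjusted p = 2.32e-06 and 1.74e-07; rescaled 1.91 and 1.56). *Pdp2*, a pyruvate dehydrogenase phosphatase gene before the *Ces2* genes, fell by 0.87 (limma adjusted p = 0.000151; rescaled -1.30).

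Genes of related functions were read as lists, beside all tested genes, of which 50.1% were higher and 4.82% lower with a median of 0.35 (rescaled 20.6%, 18.8% and -0.04). Of 21 tested other esterases and lipases, 7 were higher and 6 lower in KO (limma; rescaled 2 and 11), with a median of -0.04 (rescaled -0.48). *Lipa*, the lysosomal acid lipase, rose by 1.17, *Abhd2*, a hydrolase, rose by 1.52 and *Pon1*, a secreted paraoxonase, fell by 1.09 (adjusted p = 1.00e-05, 0.000683 and 0.000132). Rescaled, these differences were 0.71, 1.07 and -1.55. Of 16 genes of very low density lipoprotein assembly, 6 were higher and 2 lower (rescaled 1 and 8), with a median of 0.11 that changed sign rescaled, to -0.36. *Cidec*, a lipid droplet protein, rose by 1.66 and *Dgat2*, which makes triacylglycerol, fell by 0.84 (limma adjusted p = 2.67e-05 and 0.000215; rescaled 1.34 and -1.31). *Pltp*, the phospholipid transfer protein, rose by 1.04 (adjusted p = 0.00330; rescaled 0.59, adjusted p = 0.0568).

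Of 18 nuclear receptors and other factors of drug and lipid genes, 5 were higher and 1 lower (limma; rescaled 1 and 8), with a median of 0.08 that changed sign rescaled, to -0.38. *Ppara*, the fatty acid receptor of liver, was the lower one as deposited, at -1.27 (adjusted p = 0.000257; rescaled -1.71). *Ahr*, the aryl hydrocarbon receptor, rose by 0.99 (adjusted p = 0.000193; rescaled 0.55, adjusted p = 0.0233), and *Nfe2l2*, the oxidative stress factor, rose by 0.94 (limma adjusted p = 0.00347; rescaled 0.48, adjusted p = 0.0517).

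The genes most like 3 of the members were found by Pearson's r of log2(TPM + 1) over the 12 samples, given as a description since all of these profiles share the split by genotype. For *Ces3b* they were the major urinary protein genes *Mup16* (r = 0.992), *Mup22* (0.989) and *Mup3* (0.988), members of a family of near-identical copies whose single values are uncertain. For *Ces1g* they were *Hexa* (0.985) and *Grn* (0.983), which encode lysosomal proteins, and *Snapc4* (0.980), a subunit of the complex that activates small nuclear RNA genes. For *Ces2a* they were *Acadsb* (0.932), an acyl-CoA dehydrogenase of branched chains, *Hsd3b5* (0.925), a steroid dehydrogenase known to be higher in male mouse liver, and the transporter gene *Slc22a28* (0.924).

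In the authors' deposited table, the KO over WT comparison gave log2 fold changes of -4.74 for *Ces3b*, -3.10 for *Ces3a*, -1.91 for *Ces1f*, -1.46 for *Ces1b*, -1.42 for *Ces2a*, -1.25 for *Ces1d*, -1.12 for *Ces1e* and 1.17 for *Ces1g*, all with an FDR printed as 0. The authors' deposited table gave -0.64 for *Ces2e* (FDR 0.02) and -0.42 for *Ces1c* (FDR 0.34). For these last 2 genes the authors' deposited table and the rescaled values above had the same sign. Both passed the limma test rescaled, while only 1 of the 2, *Ces2e*, was past an FDR of 0.05 in the authors' deposited table. Of the 4 other tested *Ces* genes, the authors' deposited table gave -6.98 for *Ces4a*, -6.39 for *Ces2b* and -1.05 for *Ces2c* (FDR printed as 0). *Ces2g* was at -0.28 there (FDR 0.19), opposite in sign to its rise of 0.31 above.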

How the data were processed

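Total RNA from 12 frozen livers was sequenced on an Illumina platform, per the labels' protocols. The authors deposited 1 table of 25676 genes with a TPM column per mouse, per the file headers. It also holds the authors' own comparison as log2 fold change, signed fold change and FDR p-value, per the file headers. The submitters' processing notes name edgeR and the build GRCm38, with no role. The aligner is not given in the sources used here. TPM keeps no depth: low values were whole steps for 26.8 to 52.9% of genes (tolerance 0.05), so no read counts were recovered.

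Groups came from the sample titles, and replicates were numbered in accession order. Within groups, log2(TPM + 1) correlated at 0.983 to 0.995 across genes. The labels do not say more about how the mice were bred or housed. Values were analysed as log2(TPM + 1), a pseudocount of 1, for the 12278 genes whose mean over all libraries reached 0.5 TPM. A log2 difference on this scale understates the change of low genes. The linear models used limma 3.58.1 (R 4.3.3, with trend), Benjamini-Hochberg adjustment over all tested genes and a threshold of 0.05. The genotype difference had sex as a covariate. The other comparisons came from 1 model of the 4 group means. The limma fit of the genotype difference over both sexes was tested on simulated data, and the other steps were not. Positions came from GENCODE mouse release 21, and transcripts were aligned with Biopython 1.88.

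The 10 members, the gene lists and the tests were chosen with earlier results of these data known. Named genes were the members, *Yap1*, the other *Ces* genes, 5 neighbours on each side of each array, up to 3 called genes per list and the 3 genes most like 1 member of each subfamily. Alternatives were other pseudocounts, filters, scalings and moderation, a term for the lower animal numbers, and each library left out.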

Additional observations from a re-analysis of the deposited data

Results flagged for a closer look

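The KO minus WT difference of *Ces1c* differed between the sexes: the male value less the female value was 0.99 on the log2(TPM + 1) scale (limma interaction, adjusted p = 0.0434). The 3 WT females were above all other livers. Over the alternatives the value was between 0.76 and 1.08, and the adjusted p passed the threshold in 6 of 23.

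*Ces2c* differed between the sexes in the opposite direction, with an interaction of -1.39 (limma adjusted p = 0.00445; rescaled -1.62, adjusted p = 0.0114). The 3 WT males were higher than the 3 WT females without overlap, and the KO sexes overlapped.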

How the results depend on the processing

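The count of members past the threshold stayed within 1.5 times its value under all 24 alternatives for the genotype difference over both sexes and under all 23 within males and within females. Leaving out each library in turn gave 8 calls over both sexes, 6 to 8 in males and 8 to 9 in females. The interaction count of 1 became 0 with no filter, with rescaling, without the 20 most abundant genes, without the *Mup* genes, with a term for the lower animal numbers and without both such animals (chosen after seeing the data); leaving out 1 library gave 0 to 1. The 5 sex differences in WT became 3 with no filter, and 3 to 6 on leaving out 1 library; those in KO stayed at 0. The *Yap1* difference was between -3.42 and -3.30 on leaving out 1 library. The cause of these changes was not tested. Read depth and its limits are unknown, and no paired analysis was possible because the replicates carry no shared numbers in the labels.

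Changes of sign were confined to differences near 0 or moved by rescaling. Over both sexes, *Ces2e* was -0.43 rescaled, -0.042 without the 20 most abundant genes and -0.096 without the *Mup* genes (-0.018 to 0.096 on leaving out 1 library), *Ces2g* was -0.14 rescaled, and *Ces2c* was -0.20 to 0.047 on leaving out 1 library. Rescaled, *Ces1c* in males was -0.25 and *Ces2e* in females -0.14. The interaction of *Ces1e* was -0.16 rescaled and -0.071 without the *Mup* genes (-0.026 to 0.19 on leaving out 1 library). That of *Ces3a* was -0.10 rescaled, -0.0087 without the *Mup* genes and -0.17 without both animals of lower number (-0.093 to 0.37 on leaving out 1 library). For the sex difference in WT, *Ces1e* was 0.18 rescaled and 0.094 without the *Mup* genes (-0.17 to 0.044 on leaving out 1 library), and *Ces1f* was 0.12 rescaled and 0.029 without the *Mup* genes (-0.24 to 0.020). In KO, *Ces1e* was -0.0051 without the 20 most abundant genes and -0.014 without both animals of lower number (-0.043 to 0.11), *Ces2e* was 0.0055 with a term for the lower numbers (-0.066 to 0.055), *Ces1d* was -0.32 to 0.024, and *Ces1g* -0.15 to 0.00029 on leaving out 1 library.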
